A study of Homo sapiens with 8 samples.

Results

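Nuclear factor erythroid 2-related factor 2 (NRF2, encoded by NFE2L2), its inhibitor KEAP1 and 7 antioxidant or detoxification genes, NQO1, GCLC, GCLM, HMOX1, TXNRD1, SRXN1 and AKR1C1, were followed by RNA-seq through a 4-line series of breast cancer progression. The genes were chosen by name, with earlier results of these data known. Of the 9, 8 were analysed, among 56632 genes in the count table. SRXN1 was not analysed here. Each line had 2 libraries. M1 is MCF10A, a spontaneously immortalised, non-tumorigenic human mammary epithelial line. M2 is MCF10AT1k.cl2, MCF10A carrying activated T24-HRAS and selected as a xenograft. M3 (MCF10Ca1h) and M4 (MCF10CA1a.cl1) came from carcinomas that grew out of M2 xenografts, so both also descend from the HRAS-transfected cells. By their names M2 and M4 are clones, and each stage is represented by 1 line. All lines were grown in Matrigel for 8 days with 2% horse serum. EGF was present at 10 ng/ml in M1 and M2 and was omitted for M3 and M4, so that in any comparison of M3 or M4 with M1 or M2 the line and the growth factor cannot be told apart. The study calls the libraries of a line biological replicates. The labels do not say whether they came from separate cultures, and p-values measure only the spread between these libraries. In the main fit all lines share 1 estimate of that spread per gene, although the spread differed between lines. The coefficient of variation between replicates was 0.057 in M2, 0.377 in M1, 0.307 in M3 and 0.271 in M4. The close M2 pair therefore also enters the p-values of comparisons without M2.

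NRF2 is a transcription factor whose amount is set mainly by protein turnover. KEAP1 holds it for ubiquitination in unstressed cells, and modification of KEAP1 by oxidants or electrophiles lets NRF2 accumulate, pair with a small MAF protein and bind the antioxidant response element of its target genes. The targets supply glutathione (GCLC, GCLM), reduced thioredoxin (TXNRD1), quinone and carbonyl reduction (NQO1, AKR1C1) and haem breakdown (HMOX1), and mRNA of these targets is a common readout of the pathway, whereas mRNA of NFE2L2 and KEAP1 is not a measure of their proteins.

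Promoter sequence was examined for the response element because it is the element through which NRF2 acts. Windows of 300 bases, from 250 bases before to 50 bases after each RefSeq transcription start on GRCh38.p14, were matched for 7 of the 8 genes. On both strands the core TGACNNNGC was searched, and 13.3% of all 35116 windows of the same length held it. Counted by gene, since a gene can have more than 1 window, 16.1% of 27305 genes held it. It was found for 3 of the 7 genes, KEAP1, GCLM and TXNRD1, and these letters were not in the windows of NFE2L2, NQO1, GCLC or AKR1C1. A longer form, the core followed by an A, was held by 3.2% of windows and by 3.9% of genes, and was found once in each of the 3 genes. Those matches are shown with 25 bases on either side, in the direction of the gene, with the core in capitals. Each lies on the strand opposite to the gene, so that the capitals are the reverse complement of the core.
KEAP1, chr19:10502769-10502827, minus strand: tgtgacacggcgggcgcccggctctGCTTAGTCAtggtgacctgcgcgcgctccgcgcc
GCLM, chr1:93909431-93909489, minus strand: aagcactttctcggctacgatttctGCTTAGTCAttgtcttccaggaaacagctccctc
TXNRD1, chr12:104286905-104286963, plus strand: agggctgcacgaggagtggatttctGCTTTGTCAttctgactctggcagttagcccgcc
The cores of KEAP1 and GCLM were identical over their 9 letters. The first capital, read in the direction of the gene, was at position -31 in the second KEAP1 window, -34 in GCLM and -102 in the second TXNRD1 window. Positions are counted from the transcription start of the window. The first KEAP1 window held no match. KEAP1 had 1 further core match and TXNRD1 had 2, the latter in the window of its other start. HMOX1 had no window and was not searched. A match of letters is a description of the sequence and no evidence of binding. Sequence outside the windows was not searched, so the lack of a match holds for the windows alone.

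Total counts per library ran from 69669970 to 107350344. The lowest count of any member in any library was 281, for HMOX1 in M3 replicate 1. Similarity of replicates was uneven: over 13483 genes, the chi-square per degree of freedom between the 2 libraries of a line was 6.95 in M2, 136 in M4, 283 in M1 and 361 in M3, so that M2 replicates were far closer to each other than those of any other line. The libraries labelled M1 replicate 2 and M2 replicate 1 are exchanged in another listing of the same libraries by the study, whereas in the counts each was closest to the library of its own label (M1 replicate 2 to M1 replicate 1, 283; M2 replicate 1 to M2 replicate 2, 6.95). The numbering of the count columns also has these 2 libraries in each other's place, by the order that M3 and M4 follow. Which listing is right was not tested. The labels are used below, and results with the 2 libraries exchanged are given where a call was lost. Summed expression of 8 mammary epithelial markers was between 8998 and 16622 counts per 1000000 library reads (CPM, after TMM scaling) in all 8 libraries. Of the fibroblast markers COL1A2 and of the leukocyte markers CD3E were at 0 in every library. The summed fibroblast list was 72.4 to 74.3 CPM in M2, 8.62 to 60.1 in M1, 10.1 to 15.7 in M3 and 6.43 to 7.56 in M4, and its member DCN, the matrix proteoglycan decorin, was called lower in M4 than in M1 and M2. The summed leukocyte list was 39.2 to 51.5 CPM in M4 against 4.20 to 25.2 CPM in the other lines, carried by CD68, a lysosomal protein best known from macrophages. The part of both shifts in the results on M4 was not tested. HRAS, the introduced oncogene, was at 154 and 139 CPM (M1), 160 and 154 (M2), 269 and 327 (M3) and 335 and 352 (M4). It did not pass the test in M2 compared to M1 (log2 fold change 0.10, edgeR adjusted p = 0.736) and was higher in M3 (1.03, adjusted p = 0.0038) and M4 (1.23, adjusted p = 0.00119).

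TXNRD1 and HMOX1 were the members called in the main fit, and both were higher in M4. In bulk RNA, a change in the level per cell and a change in the share of cells that express a gene cannot be told apart. A gene is called when its adjusted p in edgeR's quasi-likelihood test, Benjamini-Hochberg over 18431 genes, is below 0.05 and its absolute log2 fold change is above 1. In M4 compared to M3, 2 of 8 members (25%) were called, both higher, where 10.3% of all genes were called and 3.99% were called higher. In M4 compared to M2 it was again 2 of 8 (25%), both higher, where 13.9% of all genes were called and 6.98% were called higher. The median log2 fold change of the 8 genes was 0.95 in M4 compared to M3 and 0.40 in M4 compared to M2, and the median of all genes was -0.02 and -0.01. The 2 comparisons share the M4 libraries.

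TXNRD1 (ENSG00000198431, chr12:104609557-104744085 on GRCh37, plus strand) encodes the cytosolic thioredoxin reductase, which uses NADPH to keep thioredoxin reduced. M1 libraries had 307 and 126 CPM and M2 libraries 145 and 139 CPM. M3 libraries had 57.0 and 112 CPM and M4 libraries 457 and 720 CPM. Both M4 libraries were above all 6 others, and both M3 libraries were below all others. The means were 217 ± 128 CPM (SD, n = 2) for M1, 142 ± 4.30 for M2, 84.4 ± 38.9 for M3 and 588 ± 186 for M4. TXNRD1 was 6.96-fold higher in M4 than in M3 (log2 2.80, SE 0.50, adjusted p = 0.0127) and 4.14-fold higher than in M2 (log2 2.05, SE 0.48, adjusted p = 0.0237). The difference of M4 from M1 was 2.71-fold and did not pass (log2 1.44, SE 0.47, adjusted p = 0.0547), with M1 replicate 1 lying nearest to M4. Without that library it passed, at log2 2.24 and adjusted p = 0.0153. M3 compared to M1 had a log2 fold change of -1.36 (SE 0.47, adjusted p = 0.0812), and M2 compared to M1 one of -0.61 (adjusted p = 0.478). The call against M3 was lost without M3 replicate 1 (2.39, adjusted p = 0.0644) and without M4 replicate 2 (2.45, adjusted p = 0.0576). The call against M2 held in only 1 of the 4 fits that leave out 1 library of those lines, the one without M4 replicate 1 (2.34, adjusted p = 0.0494), and the adjusted p was 0.149 without M2 replicate 1, 0.158 without M2 replicate 2 and 0.109 without M4 replicate 2.

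HMOX1 (ENSG00000100292, chr22:35776354-35790207, plus strand), the inducible haem oxygenase that opens haem to biliverdin, iron and carbon monoxide, had the same order of lines. Its CPM were 16.1 and 3.48 (M1), 5.77 and 5.50 (M2), 3.55 and 5.40 (M3) and 33.6 and 22.0 (M4). The 2 M4 libraries were above all others, M1 replicate 1 stood between them and the rest, and the remaining 5 libraries lay close together. HMOX1 was 6.21-fold higher in M4 than in M3 (log2 2.63, SE 0.65, adjusted p = 0.0346) and 4.93-fold higher than in M2 (log2 2.30, SE 0.64, adjusted p = 0.0415). Compared to M1, where the libraries differed 4.63-fold, the change was 2.84-fold and did not pass (log2 1.50, SE 0.63, adjusted p = 0.108). Without M1 replicate 1 that change was called (log2 3.02, adjusted p = 0.00339). Leaving out any 1 library of the lines compared ended both calls, with log2 fold changes of 2.30 to 2.96 against M3 and 1.97 to 2.60 against M2, so that size and direction were kept and the adjusted p was not. With M1 replicate 2 and M2 replicate 1 exchanged, both HMOX1 and TXNRD1 were still called in M4 against M2 and against M3.

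**Figure D1:**
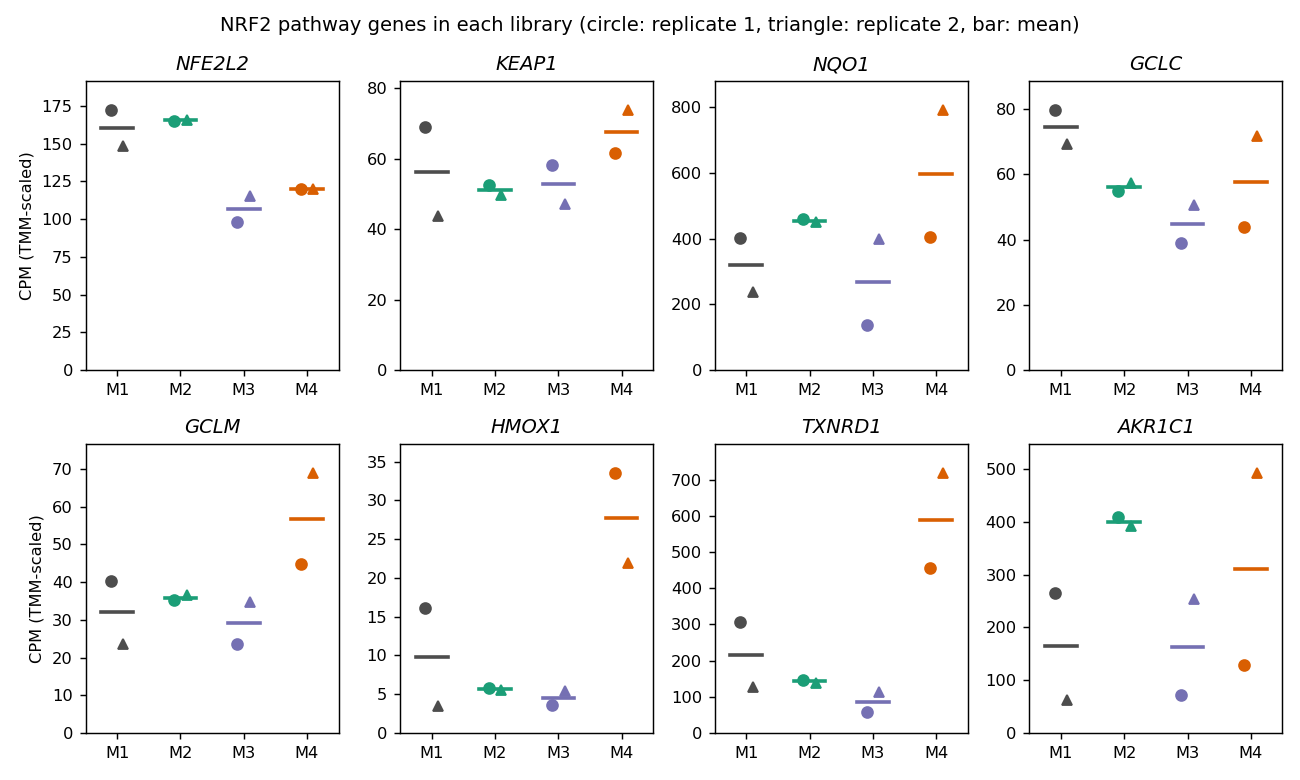
CPM (y axis, linear, TMM-scaled) of the 8 analysed genes in M1, M2, M3 and M4 (x axis), with a circle for replicate 1, a triangle for replicate 2 and a bar for their mean. For TXNRD1, HMOX1 and GCLM both M4 libraries lie above the other 6, and the M2 libraries nearly coincide for every gene.

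The glutathione synthesis enzyme is built from a modifier and a catalytic subunit. GCLM (ENSG00000023909, chr1:94350755-94375012, minus strand), the modifier subunit of this enzyme, glutamate-cysteine ligase, was at 40.3 and 23.7 CPM (M1), 35.2 and 36.5 (M2), 23.6 and 34.8 (M3) and 44.7 and 69.1 (M4). Its M4 libraries were the highest of the 8, but by a small margin over M1 replicate 1. The log2 fold change was 0.96 (SE 0.31, adjusted p = 0.0728) against M3, 0.66 (SE 0.31, adjusted p = 0.163) against M2 and 0.83 (SE 0.31, adjusted p = 0.0795) against M1, and none passed. Without M1 replicate 1 the last of these was called (1.28, adjusted p = 0.0332). GCLC (ENSG00000001084, chr6:53362139-53481768, minus strand), the catalytic subunit, was at 79.7 and 69.2 CPM (M1), 54.9 and 57.3 (M2), 38.8 and 50.5 (M3) and 43.8 and 71.6 (M4). By mean level it was highest in M1 and lowest in M3, and M4 overlapped every other line. The widest of its differences, M3 compared to M1, was -0.74 on the log2 scale (SE 0.24, adjusted p = 0.0642). The difference between the responses of the 2 subunits was not tested.

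NQO1 (ENSG00000181019, chr16:69740899-69760571, minus strand), a quinone reductase and a commonly used readout of NRF2, was at 401 and 237 CPM (M1), 459 and 449 (M2), 139 and 399 (M3) and 404 and 791 (M4). One M3 library was the lowest and one M4 library the highest, and the other M4 library was level with M1 replicate 1 and M3 replicate 2. M4 libraries did not overlap those of M3 or M1, although the nearest libraries were almost level, and they overlapped M2. NQO1 had a log2 fold change of 1.15 (SE 0.53, adjusted p = 0.173) in M4 compared to M3 and 0.91 (SE 0.52, adjusted p = 0.23) compared to M1. It was called higher in M4 than in M3 by DESeq2 and by edgeR with no count filter. Without M3 replicate 2 it was 2.10 against M3 (adjusted p = 0.0443), and without M4 replicate 2 it was 0.60 (adjusted p = 0.573).

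AKR1C1 (ENSG00000187134, chr10:5005445-5025475, plus strand), an aldo-keto reductase of steroids and lipid aldehydes, varied widely between replicates. Its CPM were 266 and 62.4 (M1), 409 and 392 (M2), 71.1 and 255 (M3) and 128 and 493 (M4). The replicates of M1, M3 and M4 differed 4.26-, 3.58- and 3.86-fold, so that those 3 lines overlapped one another, and the M2 libraries lay close together above both M1 and M3. M2 compared to M1 was at 1.29 on the log2 scale (SE 0.88, adjusted p = 0.427) and M3 compared to M2 at -1.30 (SE 0.88, adjusted p = 0.442). The first was -0.57 with M1 replicate 2 and M2 replicate 1 exchanged. The coding sequence of AKR1C1 is 98.0% identical to that of AKR1C2, with a run of 186 identical bases, and 91.4% identical to AKR1C3, and reads can be divided among them uncertainly. AKR1C2 was at 534 and 179 CPM (M1), 1108 and 1102 (M2), 242 and 733 (M3) and 188 and 870 (M4), so that the same libraries were high and low. Summing the 3 genes gave a log2 fold change of 1.41 in M2 compared to M1 (adjusted p = 0.323).

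NFE2L2 itself (ENSG00000116044, chr2:178083395-178257484, minus strand) had the smallest spread between replicates, at most 1.18-fold. Its CPM were 172 and 149 (M1), 165 and 166 (M2), 97.9 and 115 (M3) and 120 and 120 (M4). All 4 libraries of M3 and M4 were below all 4 libraries of M1 and M2, the lines with EGF. The level in M3 was 1.50-fold below M1 (log2 -0.59, SE 0.14, adjusted p = 0.0245) and 1.55-fold below M2 (log2 -0.63, SE 0.14, adjusted p = 0.0449), which passes on p but not on fold. On p alone 21.3% and 5.55% of all genes passed in these comparisons. The exchange of the 2 libraries ended both (adjusted p = 0.121 and 0.168), as did leaving out M3 replicate 1 (0.0715 and 0.107), and the first also ended without M1 replicate 1 (0.101) and the second without M2 replicate 1 (0.312) or M2 replicate 2 (0.318). M4 was at -0.42 (adjusted p = 0.0559) compared to M1 and -0.46 (adjusted p = 0.0513) compared to M2. NFE2L2 shares 3509 exon bases with HNRNPA3 on the other strand, a gene with up to 42127 counts in a library, and whether the counting used strand is not given in the sources used here. KEAP1 (ENSG00000079999, chr19:10596801-10614234, minus strand) was at 69.0 and 43.7 CPM (M1), 52.5 and 49.7 (M2), 58.2 and 47.3 (M3) and 61.6 and 73.9 (M4). M4 lay above M2 and M3 and overlapped M1, and the log2 fold changes ran from -0.14 to 0.41 with adjusted p of 0.233 or more.

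No member was called in the other comparisons. In M2 compared to M1, the step at which HRAS was introduced, it was 0 of 8, where 3.37% of genes were called, with 0 members at an unadjusted p under 0.05 in edgeR and 0 called by DESeq2. In M3 compared to M1, 0 of 8 were called against 13.5% of genes, with 3 at an unadjusted p under 0.05 (NFE2L2, GCLC and TXNRD1) and 1 called by DESeq2 (TXNRD1, lower in M3). In M4 compared to M1, 0 of 8 were called against 20.7% of genes, with 4 at an unadjusted p under 0.05 (NFE2L2, GCLM, HMOX1 and TXNRD1) and 2 called by DESeq2 (TXNRD1 and HMOX1). In M3 compared to M2, 0 of 8 were called against 4.15% of genes, with 1 at an unadjusted p under 0.05 (NFE2L2) and 0 called by DESeq2. Of all 18431 genes, 4303, 6752, 7960 and 4133 had an unadjusted p under 0.05 in edgeR in these 4 comparisons, in that order. DESeq2 called 7.85%, 16.8%, 21.4% and 7.5% of the genes it tested. The medians of the 8 genes were -0.05, -0.42, 0.87 and -0.48 in these 4 comparisons, beside -0.04, -0.02, -0.02 and -0.00 for all genes.

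**Figure D2:**
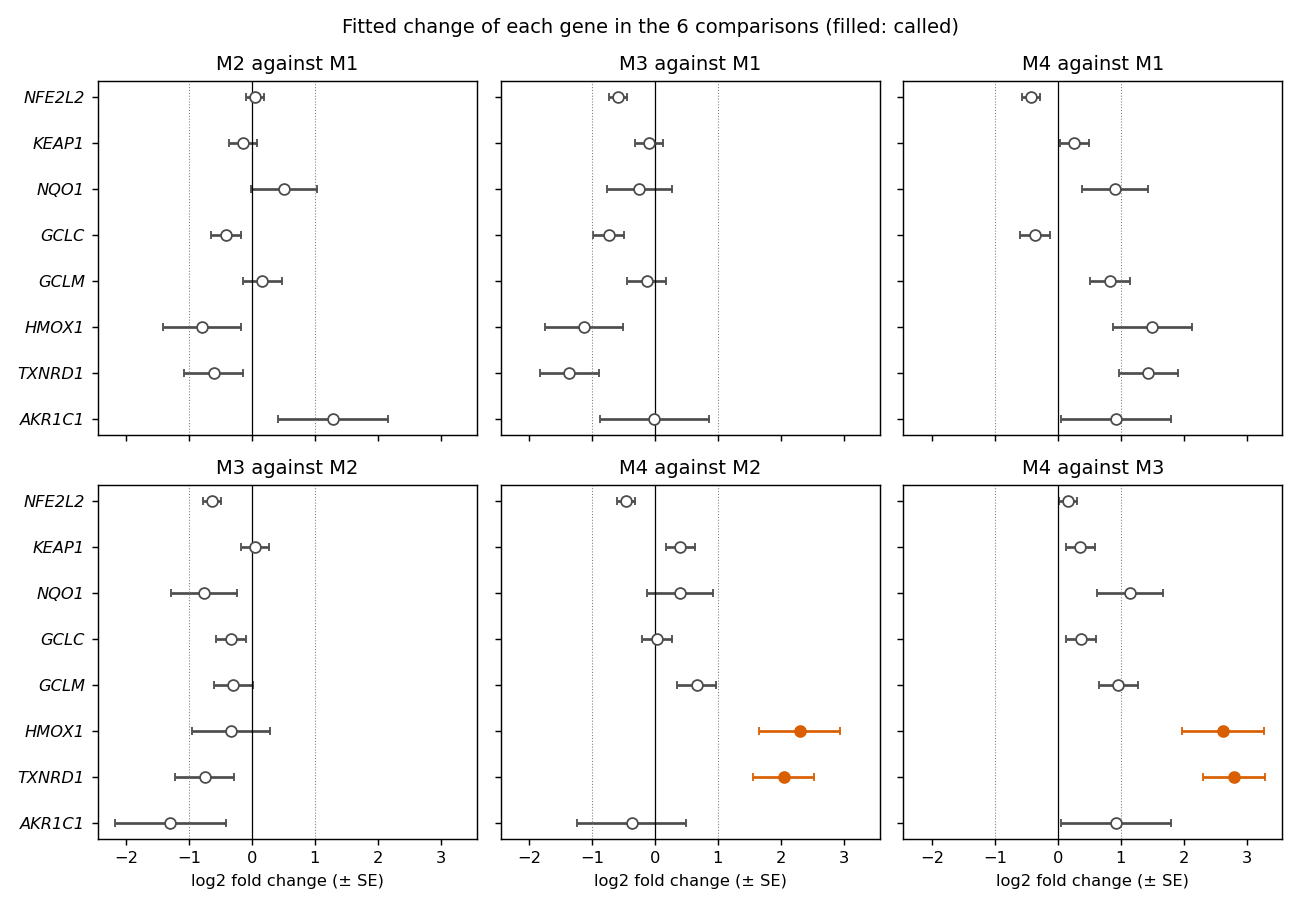
Fitted log2 fold change (x axis) with its SE as a bar for the 8 genes (y axis) in each of the 6 comparisons, filled where called and with dotted lines at 1 and -1. TXNRD1 and HMOX1 are filled in M4 against M2 and M4 against M3, at 2.05 to 2.80, and AKR1C1 has the longest bars.

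By mean level the order of the lines was M4, M1, M2 and M3 for TXNRD1 and HMOX1, M4, M2, M1 and M3 for NQO1 and GCLM, and M1, M4, M2 and M3 for GCLC. It was M2, M4, M1 and M3 for AKR1C1, M2, M1, M4 and M3 for NFE2L2, and M4, M1, M3 and M2 for KEAP1. M3 was lowest for 7 of the 8. No 2 neighbours in any of these orders differed by a call. Between replicates, all 8 were higher in M1 replicate 1 than in replicate 2, 7 of 8 were higher in M3 replicate 2, and 6 of 8 were higher in M4 replicate 2, while in M2 it was 5 in replicate 1 and 3 in replicate 2. HMOX1 was one of the 2 exceptions in M4. Across the 8 libraries, which share lines and depth, Pearson's r of log2 CPM was 0.92 for HMOX1 with TXNRD1, 0.90 for GCLM with TXNRD1, 0.90 for NQO1 with GCLM and 0.87 for NQO1 with AKR1C1. It was 0.13 for NFE2L2 with TXNRD1 and -0.03 with HMOX1. Of 9372 genes at 10 CPM or more on average, those most like TXNRD1 over the 8 libraries were PDPK1 (r = 0.99), GBF1 (0.99) and ARHGAP27 (0.98), and those most like HMOX1 were VPS33A (0.99), C6orf132 (0.99) and VSIG10 (0.99). The closest to NFE2L2 was RFX1 (0.99), to GCLM UPF2 (0.99), to NQO1 UNC13B (0.97), to GCLC DCAF12 (0.98), to KEAP1 SNTB2 (0.95) and to AKR1C1 MIB1 (0.94).

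The wider pathway was read from 9 lists of 113 genes, of which 104 were tested. These lists were chosen with earlier results of these data known, so their shares called are a description and no test. In M4 compared to M1, 16 were called higher and 8 lower (23.1%, where 20.7% of all genes were called), in M4 compared to M2, 14 and 8 (21.2%, where 13.9% of all genes were called), and in M4 compared to M3, 11 and 2 (12.5%, where 10.3% of all genes were called). The median log2 fold changes of -0.04, -0.01 and 0.03 were near those of all genes, -0.02, -0.01 and -0.02. The counts depended on the libraries, and leaving out 1 library moved them. With M1 replicate 2 and M2 replicate 1 exchanged they were 9 and 7, 16 and 5, and 8 and 2. The share of all genes called was lower with the exchange too, at 8.46%, 10.2% and 4.5% in the same order. In M3 compared to M1, 7 were higher and 8 lower (14.4%, where 13.5% of all genes were called), and in M2 compared to M1, 1 was higher and 2 lower (2.9%, where 3.37% of all genes were called). With the exchange these were 2 and 2, and 0 and 0, where 1.19% and 0% of all genes were called. Leaving out 1 library moved the counts of these 2 comparisons as well.

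Of 15 NRF2 regulators and partners, 4 were called in M4 compared to M1, where 20.7% of all genes were called. Each was higher, and the median log2 fold change of the list was 0.42. SQSTM1, the autophagy receptor p62 that sequesters KEAP1, was at 562 and 392 CPM (M1), 312 and 311 (M2), 232 and 344 (M3) and 2190.2 and 2093 (M4). The change in M4 on the log2 scale was 2.17 against M1 (SE 0.25, adjusted p = 0.000953), 2.78 against M2 (adjusted p = 0.000741) and 2.89 against M3 (adjusted p = 0.00151). Both M4 libraries were far above the other 6. In TXNRD1 the M4 libraries were also the highest, but by less, at 457 CPM in M4 replicate 1 beside 307 in M1 replicate 1. The small MAF proteins are the partners with which NRF2 binds DNA, and all 3 were higher in M4 than in M1: MAFF at 2.67 (adjusted p = 0.00035), MAFK at 1.69 (adjusted p = 0.000441) and MAFG, named after its value was seen, at 1.45 (adjusted p = 0.00491). MAFF was also higher in M3 (2.10, adjusted p = 0.0014). NFE2L3, a relative of NRF2, was higher in M3 than in M1 (1.63, adjusted p = 0.0477). BACH1, the repressor that competes with NRF2 at HMOX1, was at 0.86 (adjusted p = 0.0247) in M4 and 0.94 (adjusted p = 0.0252) in M3 compared to M1, under the fold limit, and was higher than in M2 in both M4 (1.02, adjusted p = 0.0183) and M3 (1.10, adjusted p = 0.0356). SQSTM1, MAFF and MAFK kept their calls against M1 whichever library was left out, and NFE2L3 lost its call without M1 replicate 1 (1.02, adjusted p = 0.0503), M3 replicate 1 (1.52, adjusted p = 0.145) or M3 replicate 2 (1.74, adjusted p = 0.116), and with the 2 libraries exchanged (2.16, adjusted p = 0.063).

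Among other NRF2-linked genes, 6 of 9 were called in M4 compared to M1, where 20.7% of all genes were called. Each was higher, and the median of the list was 1.45. OSGIN1, an oxidative stress-induced growth inhibitor, was at 4.74 and 2.34 CPM (M1), 3.19 and 3.13 (M2), 3.46 and 3.36 (M3) and 16.5 and 19.6 (M4), which set M4 apart from the other lines. Its log2 fold change against M1 was 2.35 (SE 0.34, adjusted p = 0.00246). The fatty acid hydroxylase CYP4F11 was at 2.40 (SE 0.52, adjusted p = 0.0119). TRIM16L was at 1.72 (adjusted p = 0.0303), and since it is a near copy of TRIM16 its reads are uncertain. TRIM16 is also among the 6 called, so that these 2 calls may not be separate. Another of the 6 had a mean below 1 CPM in every line. Without M4 replicate 2, CYP4F11 (1.81, adjusted p = 0.0731) and TRIM16L (0.88, adjusted p = 0.154) were no longer called, and TRIM16L also lost its call without M1 replicate 2 (1.37, adjusted p = 0.122), while OSGIN1 kept it in each case. With the 2 libraries exchanged CYP4F11 (2.02, adjusted p = 0.0601) and TRIM16L (1.46, adjusted p = 0.0858) were not called. The iron and haem list, to which HMOX1 is linked by the iron it frees, had 1 of 8 higher than in M1, the transferrin receptor TFRC (1.48, adjusted p = 0.00643), and a median of -0.23. FTL, the ferritin light chain, was lower in M3 than in M1 (-1.61, adjusted p = 0.00239) and higher in M4 than in M3 (1.10, adjusted p = 0.0125). Ferritin genes have many processed copies, and their counts are uncertain.

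**Figure D3:**
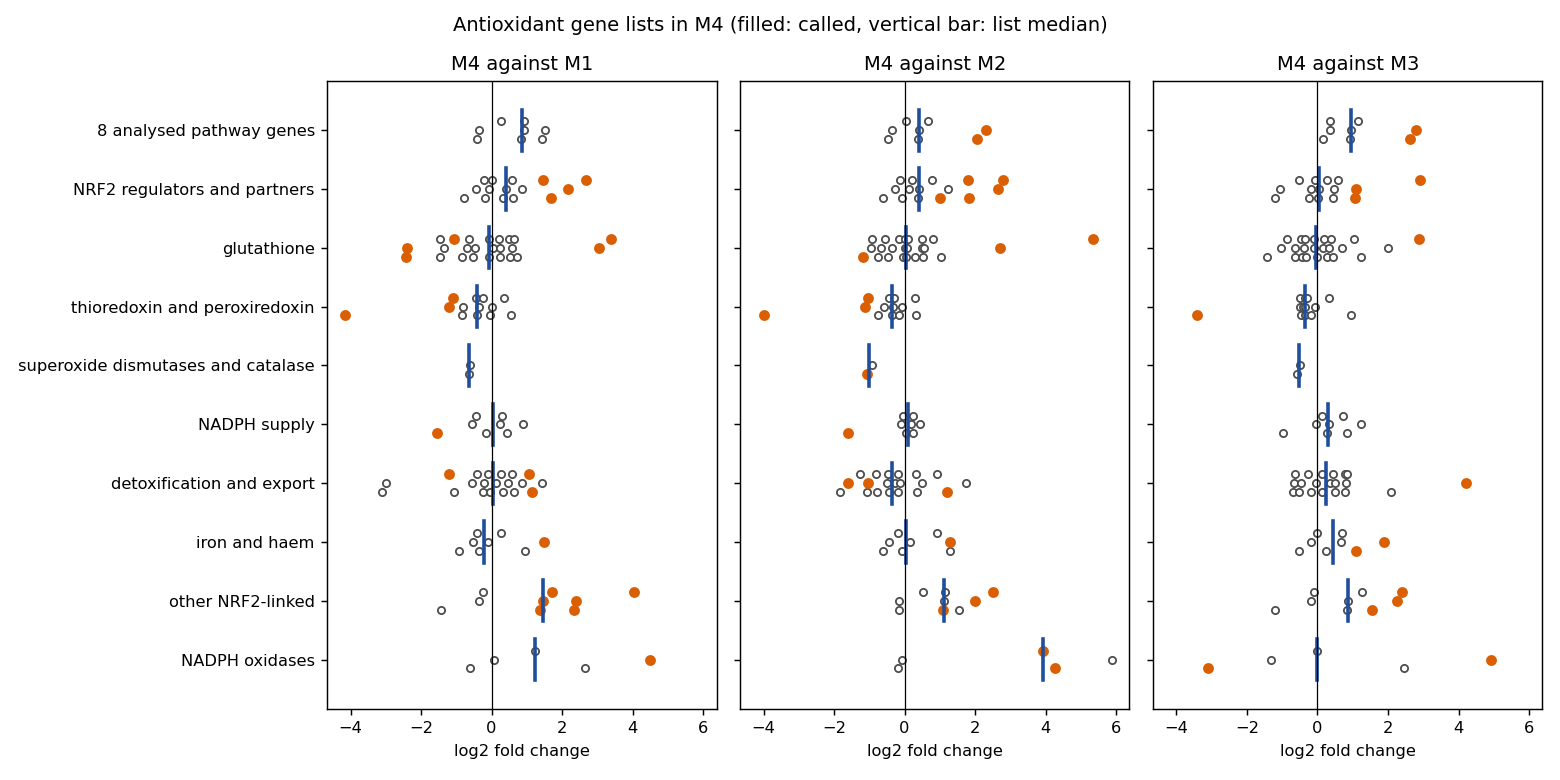
Fitted log2 fold change (x axis) of each tested gene in M4 against M1, M2 and M3 (panels), by gene list (rows), filled where called and with a vertical bar at the median of the list. The rows of NRF2 regulators and other NRF2-linked genes have filled points only to the right of 0. The thioredoxin and peroxiredoxin row, which also holds the sestrins, has them only to the left.

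The glutathione list was split. Of 24 tested genes, 2 were higher and 3 lower in M4 than in M1, with a median of -0.06, where 20.7% of all genes were called. The cystine importer SLC7A11 was at 15.7 and 7.03 CPM (M1), 14.8 and 14.0 (M2), 12.6 and 34.0 (M3) and 60.0 and 127 (M4). M4 was above all other libraries, with a log2 fold change against M1 of 3.04 (SE 0.61, adjusted p = 0.0098). CHAC1, which degrades glutathione, was at 3.39 (SE 0.70, adjusted p = 0.00971), from 1.31 and 1.04 CPM in M1 to 17.7 and 6.87 in M4. GSTA4 was lower (-2.41, adjusted p = 0.0307), resting on M1 replicate 1, at 22.2 CPM where M1 replicate 2 had 3.90 (log2 -0.66, adjusted p = 0.144, without M1 replicate 1). In M3, glutathione reductase GSR was lower than in M1 (-1.67, adjusted p = 0.0279), with 146 and 53.8 CPM in M1 and 31.3 and 31.4 in M3. GPX4, the lipid hydroperoxide peroxidase, was lower in M2 (-1.22, adjusted p = 0.0189) and M3 (-1.13, adjusted p = 0.00868) than in M1. GSTM4, one of a family of close copies, was lower in M3 (-1.38, adjusted p = 0.0451). These calls rested on few libraries. SLC7A11 missed the threshold without M4 replicate 2 (2.42, adjusted p = 0.0536), and CHAC1 without M1 replicate 2 (3.23, adjusted p = 0.0503) or M4 replicate 1 (2.56, adjusted p = 0.0549). GSTA4 also missed it without M4 replicate 1 or M4 replicate 2 (adjusted p = 0.131 and 0.149). GSR and GSTM4 were at -0.78 and -0.52 without M1 replicate 1 and missed it also without M3 replicate 1 (adjusted p = 0.117 and 0.126) or M3 replicate 2 (0.126 and 0.172). GPX4 in M3 was at -0.92 without M1 replicate 1 and -0.90 without M3 replicate 2, and in M2 its adjusted p was 0.0537 without M1 replicate 1, 0.173 without M2 replicate 1 and 0.195 without M2 replicate 2. With M1 replicate 2 and M2 replicate 1 exchanged, GPX4 was at -0.30 in M2 and -0.79 in M3, and neither was called. The exchange also ended the calls of GSR (-1.75, adjusted p = 0.077) and GSTM4 (-1.26, adjusted p = 0.29) in M3 and of CHAC1 (3.80, adjusted p = 0.0597) and GSTA4 (-2.45, adjusted p = 0.0574) in M4.

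Beside TXNRD1, the list of other thioredoxin and peroxiredoxin genes was examined. Of 13, 3 were called in M4 compared to M1, near the share of all genes called, 20.7%. Each was lower, and the median of the list was -0.41. SESN3, a stress-induced sestrin, was at 26.3 and 36.4 CPM (M1), 25.6 and 29.9 (M2), 13.5 and 24.3 (M3) and 1.82 and 1.69 (M4). It was lower in M4 than in all other lines, with log2 fold changes of -4.15 against M1 (adjusted p = 0.000256), -3.98 against M2 (adjusted p = 0.000551) and -3.42 against M3 (adjusted p = 0.00159). SESN1 was at -1.22 (adjusted p = 0.00471) and PRDX2, a cytosolic peroxiredoxin, at -1.09 (adjusted p = 0.00238) in M4 compared to M1. SESN2 was lower in M3 than in M1 (-1.30, adjusted p = 0.00195). Without M4 replicate 1 PRDX2 was at -0.998, just under the fold limit. With the exchange SESN2 was at -1.13 (adjusted p = 0.057). Thioredoxin itself, TXN, the substrate of TXNRD1, had a log2 fold change of 0.55 in M4 compared to M1 (adjusted p = 0.0724).

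Of all genes, 20.7% were called in M4 compared to M1. NADPH supply, on which TXNRD1 and NQO1 draw, had 1 of 8 genes called in that comparison, with a median of 0.04. It was lower, the mitochondrial transhydrogenase NNT, from 65.4 and 58.2 CPM to 18.4 and 23.8 (log2 fold change -1.55, SE 0.16, adjusted p = 0.000628). Of 20 detoxification and export genes, 2 were higher and 1 lower in M4 than in M1, with a median of 0.04. CBR3, a carbonyl reductase, was higher in M2 (1.28, adjusted p = 0.0311) and M4 (1.14, adjusted p = 0.0117), and with M1 replicate 2 and M2 replicate 1 exchanged the M2 value was -0.02. UGDH, which makes UDP-glucuronate, was at 1.05 (adjusted p = 0.0108), and PTGR1 at -1.22 (adjusted p = 0.00188). ABCC5, an organic anion exporter, was lower in M2 than in M1 (-1.05, adjusted p = 0.0348), and at -0.36 after the exchange. Neither M2 call held without either M2 library or without M1 replicate 1, with adjusted p of 0.0672 to 0.277. CBR3 in M2 also lost its call without M1 replicate 2 (adjusted p = 0.0688). Without M4 replicate 2, CBR3 (1.02, adjusted p = 0.0623) and UGDH (0.71, adjusted p = 0.0562) in M4 were no longer called, and CBR3 in M4 was at 0.36 after the exchange.

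In the same list ABCC2 and ALDH3A1 were lower in M3 than in M1. ABCC2, which exports glutathione conjugates, was at 67.3 and 28.9 CPM (M1), 73.0 and 70.7 (M2), 2.32 and 3.36 (M3) and 33.4 and 71.8 (M4). It was lower in M3 than in M1 (-4.08, SE 0.53, adjusted p = 0.00312) and higher in M4 than in M3 (4.21, adjusted p = 0.00495), and the M3 libraries did not overlap any other. ALDH3A1, an aldehyde dehydrogenase, was at -3.81 in M3 compared to M1 (SE 1.10, adjusted p = 0.0473), with 77.9 and 16.2 CPM in M1 and 0.682 and 5.99 in M3. ABCC4 was higher in M3 (1.52, adjusted p = 0.0321). Of the 5 NADPH oxidase genes tested, which make superoxide or hydrogen peroxide, 2 were higher in M3 than in M1, NOX5 (2.56, adjusted p = 0.0179) and DUOX1 (2.49, adjusted p = 0.00318), and the median was 0.19. Of all genes, 13.5% were called in M3 compared to M1 and 20.7% in M4 compared to M1. In M4, 1 of the 5 was higher than in M1, CYBA, named after its value was seen, at 2.30 and 1.31 CPM, where every other library was at 0.157 CPM or less. SOD1 and CAT, the superoxide dismutase and catalase tested, were at -0.62 (adjusted p = 0.034) and -0.64 (adjusted p = 0.0815) in M4 compared to M1, and neither was called. Without M1 replicate 1, ALDH3A1 was at -2.27 (adjusted p = 0.174), NOX5 at 2.25 (adjusted p = 0.0809) and ABCC4 at 1.79 (adjusted p = 0.0654), and none of these was then called. ALDH3A1 and NOX5 also lost their calls without M3 replicate 1 (adjusted p = 0.117 and 0.0739), and ABCC4 without M1 replicate 2 (0.124) or M3 replicate 2 (0.142). The exchange ended the calls of ALDH3A1 (-3.90, adjusted p = 0.125), NOX5 (1.83, adjusted p = 0.252) and ABCC4 (0.83, adjusted p = 0.484). ABCC2 and DUOX1 kept theirs in each of these fits.

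**Figure D4:**
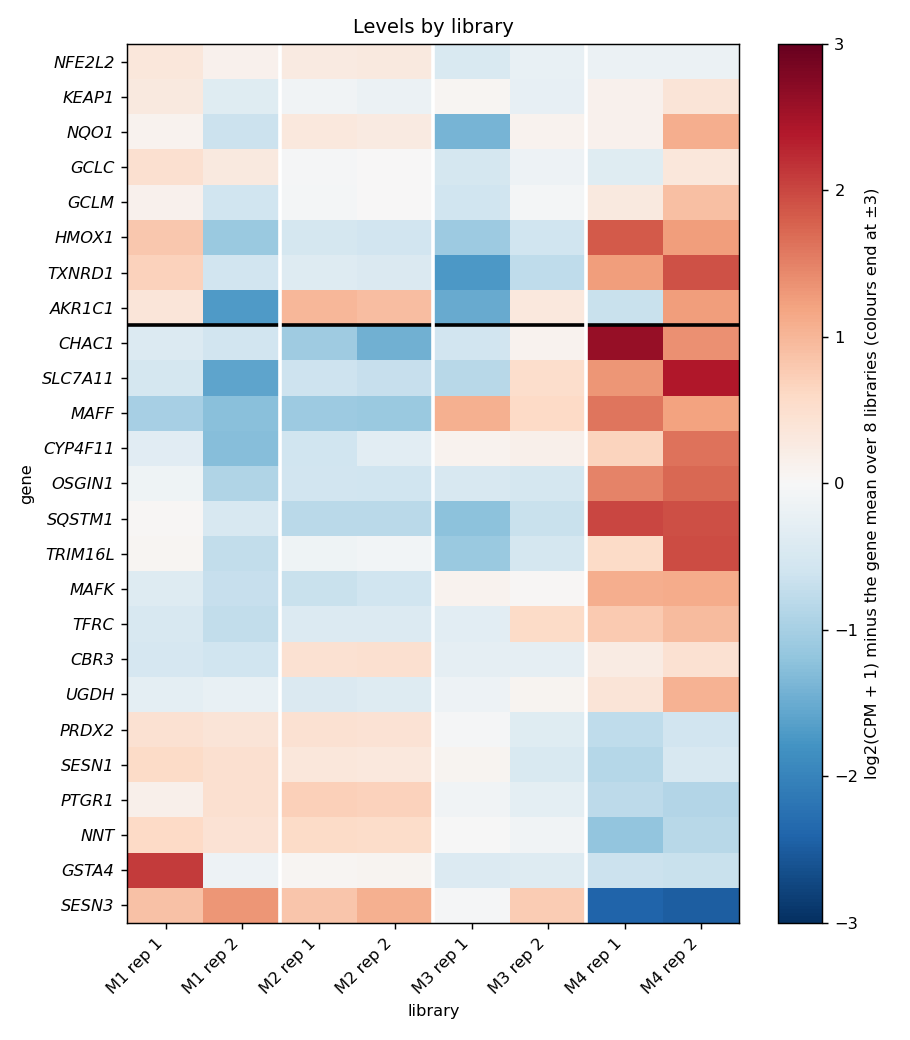
log2(CPM + 1) minus the mean of the gene over the 8 libraries (colour) by library (x axis) for the 8 analysed genes (above the line) and for the list genes named in M4 against M1, in order of fold change (below the line, y axis). TXNRD1, HMOX1, SQSTM1 and SLC7A11 are red in both M4 libraries, and AKR1C1 and NQO1 differ in colour between replicates of M3 and of M4.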

How the data were processed

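RNA-seq libraries of M1 to M4 (n = 2 each) were used. The deposited values are expected counts per Ensembl gene that the authors made with RSEM, and the submitters' processing notes also name Trimmomatic, STAR and Picard and the build hg19 (GRCh37); 12.8% of values were not whole and were rounded. Total counts of 69669970 to 107350344 per library set the precision of single counts, and replicate spread was far larger than counting error. Groups came from the labels. Genes were named from GENCODE release 44 on GRCh37.

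edgeR 4.0.16 (R 4.3.3) was run on all 8 libraries with filterByExpr, TMM scaling, 1 coefficient per line and a robust quasi-likelihood fit. SE is the absolute log2 fold change over the square root of F. In simulated counts for M4 against M1 over 17867 genes, 85 of 200 changed genes were recovered and 10 unchanged genes were called. Alternatives were RLE scaling, DESeq2 1.42.0, no count filter, a replicate block, only the lines compared, 2 libraries exchanged, adjusted p alone, a 2-fold rule on CPM with 0.001 added in both replicates, and each library left out.

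The members and lists were chosen with earlier results of these data known. From each list, up to 3 called genes with the largest absolute change and a mean of at least 1 CPM were named in each comparison with M1; others named are said to be chosen after their values were seen or bear on a member (HRAS, BACH1, TXN, AKR1C2, SOD1, CAT, CD68, DCN). Likeness is Pearson's r of log2(CPM + 1). Promoter windows are from RefSeq. The result of 1 list gene is not reported here.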

Additional observations from a re-analysis of the deposited data

Results flagged for a closer look

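For TXNRD1 and HMOX1 the fitted changes of M3 and M4 compared to M1 had opposite signs. Both genes were flagged by these signs together with their call in M4 against M3 in the edgeR fit. That call is therefore no separate test, and it does not test movement in opposite directions from M1. TXNRD1 had log2 fold changes of -1.36 in M3 and 1.44 in M4 compared to M1, and the difference was 2.80 (adjusted p = 0.0127). HMOX1 had -1.13 and 1.50, and the difference was 2.63 (adjusted p = 0.0346). None of the 4 changes from M1 passed on its own, M1 replicate 1 was above M1 replicate 2 in both genes, and without M1 replicate 1 the change of HMOX1 in M3 was 0.37.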

How the results depend on the processing

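TXNRD1 and HMOX1 kept their direction in M4 compared to M2 and to M3 under every alternative. Members called in M4 against M2 were 1 with the replicate block, where HMOX1 had an adjusted p of 0.05 and 13.4% of all genes were called. Leaving out 1 library moved the count of members called in every comparison but M3 against M2. In the other comparisons the count of 0 became 1 (M2 against M1), 2 (M3 against M1), 2 (M4 against M1) and 1 (M3 against M2) with no count filter. All genes called were then 6.08%, 11.8%, 15.7% and 6.39%. With DESeq2 it became 1 in M3 against M1 (16.8% of all genes) and 2 in M4 against M1 (21.4%). It was 1 on adjusted p alone in M3 against M1 (21.3% of all genes) and in M3 against M2 (5.55%). By the 2-fold rule it was 1 in M4 against M1 (20.7% of all genes). In M4 against M3 the count of 2 became 3 with DESeq2, where 13.5% of all genes were called. With no count filter it also became 3, where 9.91% of all genes were called. NQO1, higher in M4, was the member added in both. Replicate numbers gave no pairing common to all lines. Deviations of same-numbered libraries correlated at 0.23 between M3 and M4 and at -0.06 to 0.01 between the other pairs of lines. The block changed no other count of members.

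Genes called in M2 against M1, 622, were 1324 (DESeq2), 1788 (no filter), 0 (2 libraries exchanged), 3366 (2-fold rule) and 0 to 876 without 1 library. In M3 against M1, 2494 became 1659 (only the lines compared), 219 (exchanged), 3918 (p alone), 4920 (2-fold rule) and 1752 to 2298. In M4 against M1, 3821 became 1559 (exchanged), 5779 (p alone), 6098 (2-fold rule) and 2425 to 3651. In M3 against M2, 765 became 1480 (DESeq2), 1880 (no filter), 214 (exchanged), 3621 (2-fold rule) and 83 to 573. In M4 against M2, 2567 became 4096 (p alone), 5503 (2-fold rule) and 927 to 1665. In M4 against M3, 1897 became 2916 (no filter), 830 (exchanged), 3091 (p alone), 4750 (2-fold rule) and 598 to 1671. The motif share of 13.3% became 3.2% for the longer form. Counts of list genes without 1 library or with libraries exchanged were chosen after seeing the data.

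With the 2 libraries exchanged, log2 fold changes in M2 against M1 turned to -0.10 for NFE2L2, -0.33 for NQO1, -0.33 for GCLM, -0.57 for AKR1C1 and -0.023 for CBR3; GCLC turned to -0.13 in M4 against M2, and AKR1C1 to -0.12 in M4 against M1 and 0.45 in M4 against M2. AKR1C1 summed with AKR1C2 and AKR1C3 turned to 0.30 in M3 against M1. Without 1 library, uncalled changes crossed 0. In M2 against M1 the ranges were -0.055 to 0.15 (NFE2L2), -0.43 to 0.22 (KEAP1), -0.17 to 0.60 (GCLM), -1.51 to 0.70 (HMOX1) and -1.11 to 0.17 (TXNRD1). In M3 against M1 they were -0.38 to 0.28 (KEAP1), -1.19 to 0.33 (NQO1), -0.46 to 0.31 (GCLM), -1.84 to 0.37 (HMOX1) and -1.20 to 1.40 (AKR1C1). In M4 against M1 they were -0.027 to 0.65 (KEAP1) and -0.34 to 2.33 (AKR1C1), in M3 against M2 -0.11 to 0.19 (KEAP1), in M4 against M2 -0.15 to 0.80 (NQO1), -0.33 to 0.36 (GCLC) and -1.62 to 0.30 (AKR1C1), and in M4 against M3 -0.014 to 0.68 (GCLC) and -0.34 to 2.13 (AKR1C1). The cause was not tested. Depth limited no member, and the number of libraries limits every test.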

Other observations

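The core TGACNNNGC was in a promoter window of 22 of the 89 list genes with a window (24.7%) and of 16.1% of all 27305 genes, and the core followed by an A in 10.1% and 3.9%, given as a description with no test.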
